A study of Homo sapiens with 4 samples.

Results

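The genes described here are 45 genes of mitosis, the regulators, motors and chromosome attachment proteins that build the spindle and part the chromosomes. They were chosen by symbol, from a list of mitotic spindle and kinetochore genes set with earlier results of these data known, and all 45 were found among the 23228 genes counted in each library. The cells were A673, an established Ewing sarcoma cell line known for its EWSR1-FLI1 fusion, transfected with a control siRNA (labelled scramble in one field) or with an siRNA against FAT4, which encodes an atypical cadherin. RNA was taken 24 h or 48 h after transfection, and each siRNA and time had 1 library, so that 4 libraries were compared: control siRNA 24 h, control siRNA 48 h, FAT4 siRNA 24 h and FAT4 siRNA 48 h. All groups share the transfection reagent and the serum-containing medium, and no untransfected cells were among the libraries used here. With 1 line, 1 FAT4 siRNA label and no replicate culture, the p-values below do not measure the spread between cultures. In the edgeR fit they rest on 1 trend of spread shared by all genes, drawn from these 4 libraries alone.

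Entry into mitosis is driven by CDK1 with its A-type and B-type cyclins, which CDC25 phosphatases switch on. Microtubules then attach to kinetochores, protein assemblies on the centromeres, and the spindle assembly checkpoint holds back anaphase until every chromosome is attached. The genes are transcribed mainly in G2 and mitosis, so that in bulk RNA more cells in these phases and more transcript per cell cannot be told apart. Many of their promoters are known for CHR and CCAAT elements, read by the DREAM and MuvB complexes and by NF-Y, and FOXM1 and MYBL2 take part in their activation.

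Promoter windows from RefSeq (build GRCh38.p14, 250 bases before to 50 after the annotated start) were matched for 38 of the 45 genes, with 48 windows because some genes have several starts. The letters TTTGAA or TTCGAA of the CHR, on either strand, occurred in 33 of the 48 windows (68.8%), against 16.4% of all 35093 windows. CCAAT, on either strand, occurred in 36 of the 48 windows (75%), against 34.6% of all windows, and both elements occurred together in 27 (56.2%), against 6.37%. Matches of the CHR letters lay at a median position of -21.5 bases (negative is upstream of the start), with 32 of 44 within 50 bases of it. CCAAT matches lay further upstream, at a median position of -83.5, and 49 of 74 lay 50 to 150 bases upstream. A match describes letters in the window and is not evidence of a bound factor.

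The windows of 4 genes are printed for their changes. HMMR and CCNA2 rose with the FAT4 siRNA, PLK1 fell with time and CCNB2 rose with time. Capitals mark the CHR and CCAAT letters on either strand.
HMMR, chr5:163460382-163460681, plus strand: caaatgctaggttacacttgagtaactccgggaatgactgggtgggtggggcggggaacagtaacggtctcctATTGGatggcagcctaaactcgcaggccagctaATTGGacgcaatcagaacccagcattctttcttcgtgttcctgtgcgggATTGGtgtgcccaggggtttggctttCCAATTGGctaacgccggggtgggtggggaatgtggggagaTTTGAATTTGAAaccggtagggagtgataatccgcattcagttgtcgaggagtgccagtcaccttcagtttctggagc
CCNA2, chr4:121823834-121824133, minus strand: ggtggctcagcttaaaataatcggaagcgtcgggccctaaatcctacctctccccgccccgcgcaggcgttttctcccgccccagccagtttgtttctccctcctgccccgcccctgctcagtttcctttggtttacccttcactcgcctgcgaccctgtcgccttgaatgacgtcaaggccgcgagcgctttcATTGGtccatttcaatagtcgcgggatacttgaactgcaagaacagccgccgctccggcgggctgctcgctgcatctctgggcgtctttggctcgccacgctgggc
PLK1, chr16:23678639-23678938, plus strand: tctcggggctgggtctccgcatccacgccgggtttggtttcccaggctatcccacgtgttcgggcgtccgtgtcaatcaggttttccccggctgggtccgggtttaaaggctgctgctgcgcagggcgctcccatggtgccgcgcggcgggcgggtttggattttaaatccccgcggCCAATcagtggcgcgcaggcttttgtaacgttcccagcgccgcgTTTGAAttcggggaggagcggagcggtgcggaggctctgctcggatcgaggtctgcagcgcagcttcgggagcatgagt
CCNB2, chr15:59104896-59105195, plus strand: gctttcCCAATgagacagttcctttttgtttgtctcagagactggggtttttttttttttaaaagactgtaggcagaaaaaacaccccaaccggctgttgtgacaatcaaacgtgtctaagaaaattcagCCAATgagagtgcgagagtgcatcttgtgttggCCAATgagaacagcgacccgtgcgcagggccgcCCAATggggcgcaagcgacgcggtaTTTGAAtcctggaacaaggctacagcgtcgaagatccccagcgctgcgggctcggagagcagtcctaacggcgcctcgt
The HMMR window held 2 CHR matches side by side and 5 CCAAT matches, with the adjoining pair sharing bases. The CCNB2 window held 1 CHR match and 4 CCAAT matches, and the PLK1 window 1 of each. In the CCNA2 window CCAAT was found once and the letters searched for the CHR were not found. The CHR matches of PLK1 and CCNB2 both lay 26 bases upstream of the start. Any relation of these letters to the changes in level was not tested.

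**Figure D1:**
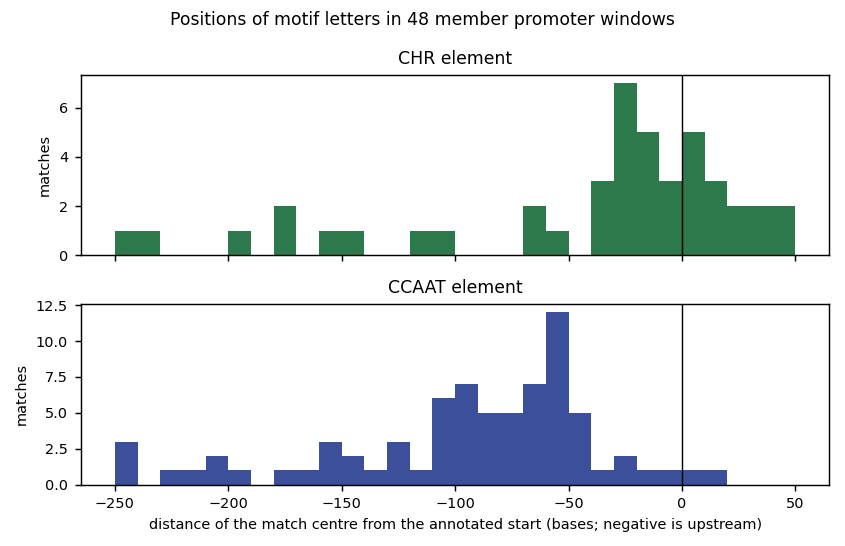
Number of matches of the CHR letters (upper panel) and of CCAAT (lower panel) by distance from the annotated start, in bases, over 48 promoter windows of 38 of the genes; windows of alternative starts of 1 gene can overlap. CHR matches gather around the start (median position -21.5) and CCAAT matches further upstream (median -83.5).

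Gene counts totalled 15196813 to 22625833 per library, and single mitotic genes held 202 to 16565 counts. The labels were checked first on the targeted gene. FAT4 stood at 165, 149, 71.8 and 60.2 CPM in control siRNA 24 h, control siRNA 48 h, FAT4 siRNA 24 h and FAT4 siRNA 48 h, the order used for all values below. CPM are counts per 1000000 after TMM scaling of the libraries. Of 10 Ewing sarcoma markers, 9 had a mean of at least 5 CPM, among them NR0B1 and NKX2-2, whereas CD99 had 0 counts in all 4 libraries. Whether the CD99 transcript was absent or its reads were not assigned to the gene cannot be told from these counts. Of 14 markers of leukocytes, endothelium, epithelium and fibroblasts, CD3E, MS4A1 and KRT5 had 0 counts in all libraries, PDGFRB and CD68 exceeded a mean of 5 CPM, and the summed level was 60.1 to 62.8 CPM with the control siRNA and 45.8 to 51.8 CPM with the FAT4 siRNA.

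All 45 mitotic genes passed the filter on low counts. Together they held 0.963% of gene counts in control 24 h (95% Clopper-Pearson interval 0.959% to 0.967%) and 0.971% in control 48 h (0.966% to 0.975%). The share was 1.10% in FAT4 siRNA 24 h (1.096% to 1.106%) and 1.09% in FAT4 siRNA 48 h (1.087% to 1.097%), above both control libraries. These intervals, like those of all ratios below, cover counting error only. Per kilobase of the longest annotated transcript, mean levels ran from 6.05 CPM for SPC24 to 209 CPM for CCNB1, with UBE2C at 175 and CDK1 at 155 CPM per kilobase next to the top.

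How did mitotic transcripts differ between cells given the FAT4 siRNA and cells given the control siRNA, with both times in 1 model? The edgeR fit called 16 of the 45 genes higher (35.6%) and 0 lower at an adjusted p under 0.05, where it called 11.9% of the 13712 genes tested higher and 14.1% lower. Without adjustment, 21 were higher and 0 lower at p under 0.05 (17.1% and 19.4% of all genes tested), and DESeq2 called 9 higher and 0 lower (4.37% and 4.63% of all genes tested). The calls of CDK1, BUB1, KIF15, KIF18A, PRC1, ANLN and ASPM were lost in DESeq2, with adjusted p of 0.0596 to 0.179. Among the 8813 genes within the range of mean CPM of the mitotic genes, edgeR called 15.1% higher and 15.7% lower. The median level of those genes was 58.7 CPM, against 208 CPM for the mitotic genes, so the match by level was partial. The changes were small, from 0.23 to 0.41 on the log2 scale except for HMMR, which rose by 0.92. The median log2 fold change was 0.17 over the 45 genes and -0.01 over all genes tested. For 24 genes both FAT4 siRNA libraries stood above both control libraries (20.8% of all genes tested did so), and for SPC24 both stood below (23% of all genes tested did so).

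HMMR, which encodes a hyaluronan receptor that also acts as a spindle assembly factor, showed the largest change of the 45. It stood at 61.6 and 68.1 CPM with the control siRNA and at 109 and 137 CPM with the FAT4 siRNA, so that the groups did not overlap. The ratio was 1.77 at 24 h (counting interval 1.65 to 1.90) and 2.02 at 48 h (1.89 to 2.16), and the fit gave a log2 change of 0.92 (SE 0.10, adjusted p = 3.12e-18, higher in both pairs of libraries). HMMR was also called by DESeq2 and after correction for GC content and length.

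Among the other spindle genes, the microtubule bundling proteins NUSAP1 and PRC1 and the spindle pole protein ASPM rose. NUSAP1 was at 244 and 243 CPM in the controls and at 299.9 and 308 CPM with the FAT4 siRNA (log2 0.32, SE 0.09, adjusted p = 0.00287). PRC1, which marks and crosslinks the central spindle, was at 471 and 458 against 559 and 559 CPM (log2 0.27, adjusted p = 0.0134). ASPM was at 345 and 369 against 437 and 429 CPM (log2 0.28, adjusted p = 0.00923). In each of these genes the siRNA groups were apart. TPX2, which brings AURKA to the spindle, was at 413 and 428 against 487 and 491 CPM, with no overlap either, but missed the threshold (adjusted p = 0.0519).

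In the group that drives entry into mitosis, CCNA2 and CDK1 rose and the B-type cyclins did not pass the test. CCNA2, the A-type cyclin of S phase and G2, was at 241 CPM in both controls and at 321 and 318 CPM with the FAT4 siRNA (log2 0.41, SE 0.09, adjusted p = 9.06e-05). CDK1 was at 274 and 278 against 329 and 323 CPM (log2 0.24, adjusted p = 0.0337). The CDK1 call was lost with DESeq2 (adjusted p = 0.128), with the correction for GC content and length (0.933) and under library totals (0.0534). CCNB1 had nearly the same level in every library, at 458, 437, 455 and 459 CPM (log2 0.03, adjusted p = 0.838), and CCNB2 had a log2 change of 0.14. CDC25B was at 203, 164, 198 and 164 CPM, so that its libraries differed by time and hardly by siRNA. CDC25C had a log2 change of 0.27 and an adjusted p of 0.0854, and its 587 counts in the deepest library made its SE wider, at 0.12.

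In the NDC80 complex, the coupler between kinetochore and microtubule, NDC80 and NUF2 were called and SPC24 and SPC25 were not. NDC80 was at 93.8 and 91.1 CPM in the controls and at 120.3 and 123 CPM with the FAT4 siRNA (log2 0.40, SE 0.10, adjusted p = 0.000411). Its partner NUF2 was at 124 and 148 against 175 and 184 CPM (log2 0.40, adjusted p = 0.00019). The other two subunits did not pass: SPC25 had a log2 change of -0.06 (adjusted p = 0.745) and SPC24, the least abundant of the 45 genes, one of -0.13 (adjusted p = 0.601). The difference between subunits was not tested. With the correction for GC content and length, NDC80 (adjusted p = 0.0721) and NUF2 (0.0807) lost the call.

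CENPE, a kinetochore motor, and CENPF, a large kinetochore and spindle protein, rose as well. CENPE was at 262 and 288 CPM against 374 and 338 CPM (log2 0.37, adjusted p = 0.000396). CENPF, the gene with the most counts, was at 715 and 823 against 905 and 1047 CPM (log2 0.34, adjusted p = 0.00104). In both genes the FAT4 siRNA libraries were the 2 highest. CENPA, the centromeric histone, had a log2 change of 0.04 and was not called.

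Of 4 checkpoint genes, MAD2L1 and BUB1 rose. MAD2L1, which as MAD2 inhibits CDC20, was at 104 and 109.9 against 140.2 and 133 CPM (log2 0.35, SE 0.09, adjusted p = 0.0018). The kinase gene BUB1 was at 190.4 and 199.6 against 225 and 233 CPM (log2 0.23, adjusted p = 0.0427). The BUB1 call was lost with DESeq2 (adjusted p = 0.158), with the correction for GC content and length (0.273) and under library totals (0.066). BUB1B had a log2 change of 0.17 and BUB3 one of -0.03, and neither passed.

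Of 9 kinesins, KIF15 and KIF18A rose. KIF15, which supports spindle bipolarity, was at 48.7 and 50.3 against 66.0 and 60.0 CPM (log2 0.35, SE 0.11, adjusted p = 0.00804). KIF18A, which damps chromosome movements at the metaphase plate, was at 188 and 196 against 229 and 221 CPM (log2 0.23, adjusted p = 0.0487). Neither kinesin was called with DESeq2 (adjusted p = 0.109 and 0.179) or with correction for GC content and length (0.068 and 0.913), where KIF18A had a log2 change of 0.01. The KIF18A call was also lost under library totals and without the filter on low counts. KIF11, the motor that pushes the spindle poles apart, was at 221 and 218 CPM in the controls but at 279 and 224 CPM with the FAT4 siRNA, high in the 24 h library alone (log2 0.19, adjusted p = 0.103). The remaining 6 kinesins had log2 changes of 0.12 to 0.20 and did not pass.

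The genes grouped under cytokinesis here, ECT2 and ANLN, rose. ECT2, the exchange factor that activates RhoA at the cell equator, was at 198 and 203 against 283 and 228 CPM (log2 0.34, adjusted p = 0.00152). ANLN, the scaffold of the contractile ring, was at 364 and 320.1 against 450.2 and 358 CPM (log2 0.23, adjusted p = 0.0368). ANLN was the only one of the 16 called genes whose groups overlapped, since control 24 h exceeded FAT4 siRNA 48 h. With the correction for GC content and length neither ECT2 (adjusted p = 0.127) nor ANLN (0.336) was called. DESeq2 did not call ANLN (adjusted p = 0.139).

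None of the mitotic kinases PLK1, AURKA and TTK, the passenger complex genes AURKB, INCENP and BIRC5, or the anaphase genes CDC20, UBE2C, PTTG1 and ESPL1 was called in this comparison. AURKB, the kinase that corrects wrong attachments, was at 106, 94.6, 109 and 95.1 CPM (log2 0.03). AURKA, a centrosome kinase, was at 136, 116, 142 and 139 CPM (log2 0.16, adjusted p = 0.223). FOXM1, a transcription factor of the G2 and M program, had a log2 change of 0.08 and TOP2A, which untangles sister chromatids, one of 0.16. Over the 29 genes not called, log2 changes ran from -0.13 to 0.27, with 22 above 0.

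**Figure D2:**
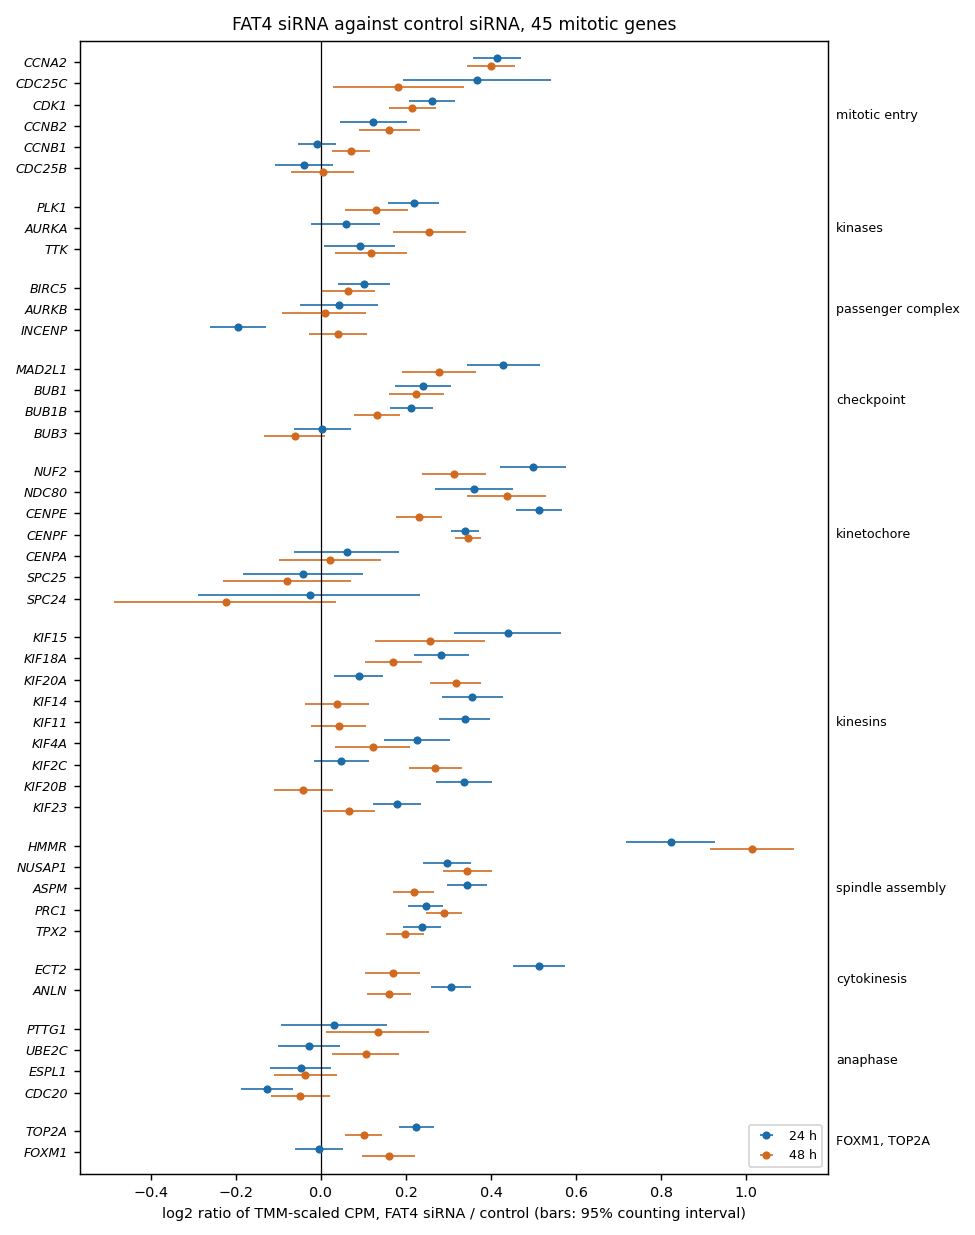
Log2 ratio of scaled CPM, FAT4 siRNA to control siRNA, at 24 h (blue) and 48 h (orange) for the 45 genes grouped by role; bars are 95% counting intervals and there is 1 library per siRNA and time. HMMR lies furthest to the right at both times (0.82 and 1.01), and the anaphase and passenger complex genes lie around 0.

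**Figure D3:**
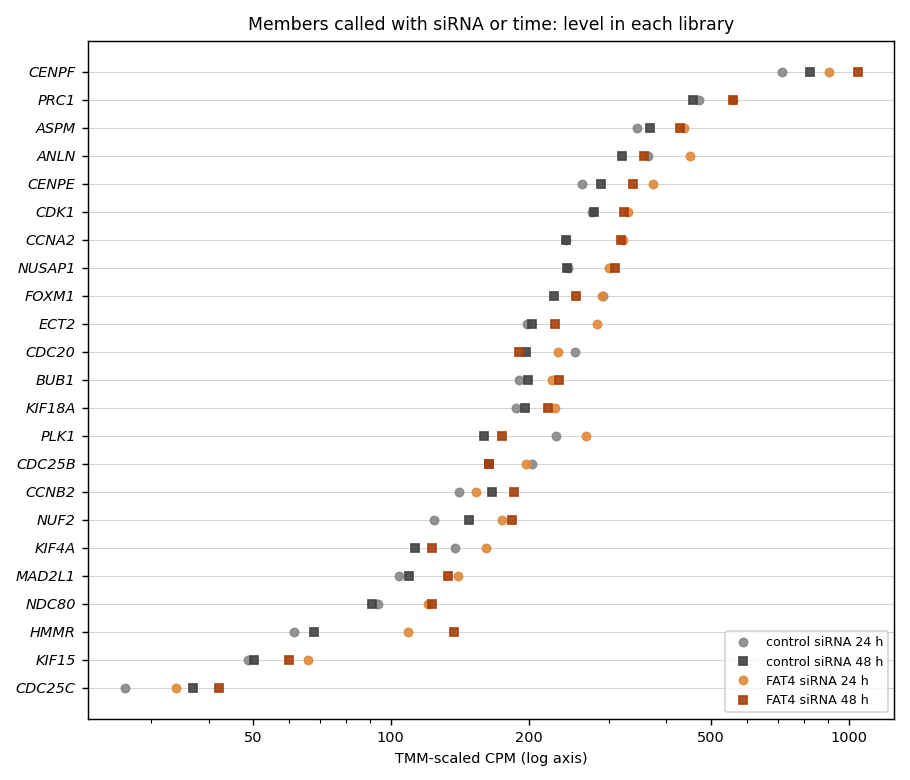
Scaled CPM on a log axis in each of the 4 libraries for the 23 genes called in the siRNA or the time comparison. Circles are 24 h and squares 48 h, grey is control siRNA and orange FAT4 siRNA. For 15 of the 16 genes called with siRNA both orange symbols lie to the right of both grey ones.

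The siRNA change moved with base composition within the 45 genes. Across them the Spearman correlation of transcript GC content with the log2 fold change was -0.62 over both times, -0.74 at 24 h and -0.31 at 48 h (45 genes measured in the same libraries, a description only). All 16 called genes had a transcript GC content below 48.5%, the median of all genes tested, between 35.3% for CENPE and 48.1% for PRC1. Below that median 16 of 33 mitotic genes were called higher and 0 lower, where 19.4% and 8.94% of all genes there were. At or above it 0 of 12 were called higher or lower, where 4.49% of all genes were higher and 20% lower. The median log2 fold change of the mitotic genes was 0.23 below the median GC content and 0.03 at or above it, and that of all genes was 0.10 and -0.12.

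With a correction for GC content and length in the same fit, 6 of the 45 genes were called higher (13.3%) and 0 lower, where 8.72% of 13129 genes were higher and 11.8% lower. At an unadjusted p under 0.05 these counts were 16 and 1, where 15% of all genes were higher and 18.4% lower. CCNA2 (log2 0.27), MAD2L1 (0.22), CENPF (0.28), HMMR (0.69) and PRC1 (0.26) remained called, PLK1 (0.25) was called in addition, and CDK1, BUB1, NDC80, NUF2, CENPE, KIF15, KIF18A, ECT2, ANLN, NUSAP1 and ASPM lost the call, with adjusted p of 0.0518 for CENPE to 0.933 for CDK1. CDK1 changed sign under the correction, at -0.01. The median was 0.10 over the 45 genes and -0.01 over all genes, and the correlation with GC content was -0.05. A model without the time term called 0 of the 45 genes, and 0 of all genes, at the adjusted threshold. At an unadjusted p under 0.05 it had 8 of the 45 higher and 0 lower, where 5.44% of all genes were higher and 7% lower. How far the siRNA, or a difference in library composition, set these ratios was not tested.

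**Figure D4:**
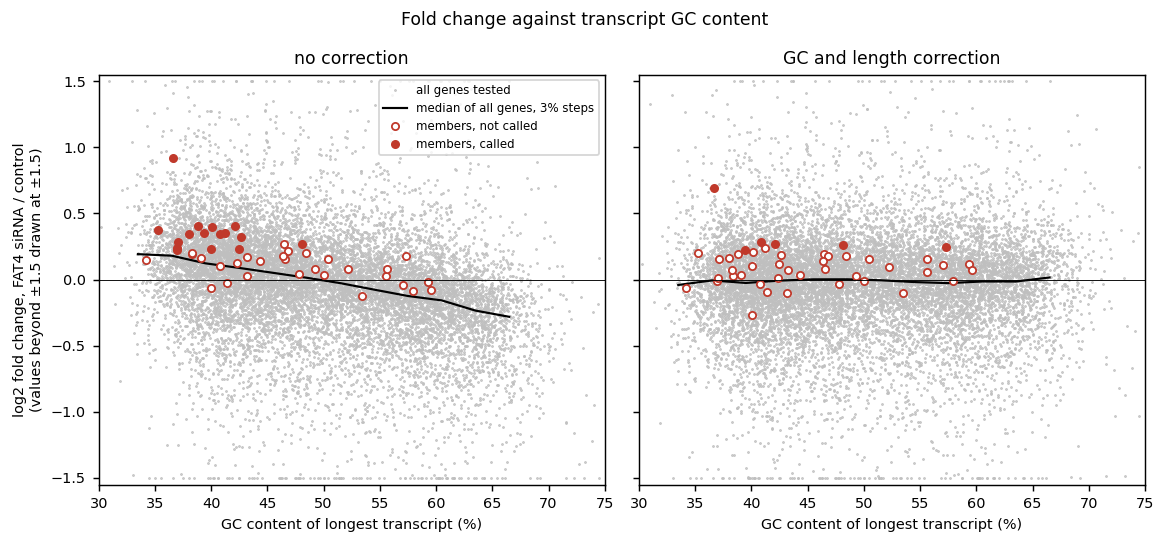
Log2 fold change of FAT4 siRNA against control siRNA over both times against the GC content of the longest transcript, without (left) and with (right) correction for GC content and length. Grey points are all genes tested, the line is their median in steps of GC content, and red points are the 45 mitotic genes, filled where called: 16 on the left and 6 on the right.

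At each time alone 1 library stood against 1, so ratios are given with no test. At 24 h 17 genes were at least 1.2-fold higher with the FAT4 siRNA (37.8%, where 19.1% of all genes tested were) and 0 at least 1.2-fold lower (25.4% of all genes). At 48 h 10 were at least 1.2-fold higher (22.2%, where 22.9% of all genes were) and 0 lower (25.5% of all genes), so that the share at 48 h was near that of all genes. The counting interval lay above 1 for 30 genes at 24 h (24.4% of all genes) and 33 at 48 h (27.4%), and below 1 for CDC20 and INCENP at 24 h (27.3%) and for 0 at 48 h (28.2%). It lay above 1 at both times for 27 genes, where 16.2% of all genes tested did so, and below 1 at both times for 0, where 17.5% did so. Whether an interval excludes 1 depends on the count. The mitotic genes had a median level of 208 CPM, against 30.1 CPM over all genes tested, so these shares are not matched by level. Ratios at 24 h and 48 h, which share no library, correlated across the 45 genes at a Spearman rho of 0.65 (a description). Both ratios also correlated with transcript GC content, at -0.74 and -0.31. How far that trend contributed to the rho of 0.65 was not tested.

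Several genes had a higher ratio at 1 of the times. The difference of log2 ratios exceeded 1.96 counting errors for 14 genes with a smaller ratio at 48 h (31.1%, where 16.9% of all genes tested did so). It also did for 8 with a larger one (17.8%, where 16.4% did so). These shares depend on counts and are not matched by level. A model with this interaction leaves no residual, so the interaction was not tested. KIF20B was 1.26-fold higher at 24 h (interval 1.21 to 1.32) and 0.972-fold at 48 h (0.926 to 1.02). ECT2 went from 1.43 to 1.12, KIF14 from 1.28 to 1.03 and KIF11 from 1.26 to 1.03. In the other direction, INCENP went from 0.874 (0.834 to 0.915) to 1.03 (0.980 to 1.08), KIF20A from 1.06 to 1.25 and KIF2C from 1.03 to 1.205. HMMR, CCNB1, AURKA, UBE2C and FOXM1 also had a larger ratio at 48 h. The transcript GC content ran from 34.2% to 43.2% (median 38.6%) over the 14 genes and from 36.7% for HMMR to 59.6% (median 49.2%) over the 8, so that the ranges overlapped.

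The comparison of 48 h with 24 h asked what changed with time after transfection, over both siRNAs. The edgeR fit called 2 mitotic genes higher (4.44%, where 13.8% of all genes tested were) and 6 lower (13.3%, where 12.8% were), so that the share of lower genes was near that of all genes. The median log2 fold change was -0.05 over the 45 genes and 0.01 over all genes tested; with library totals in place of TMM these were 0.01 and 0.07, and with upper quartile scaling 0.0069 and 0.06. DESeq2 called 0 higher and 3 lower (3.87% and 4.7% of all genes tested), and 2 and 7 at an unadjusted p under 0.05 (8.93% and 11.2%). With the correction for GC content and length, 3 were higher and 8 lower (13.7% and 14% of all genes). Of the 12 genes at or above the median GC content 4 fell (17.3% of all genes there), and of the 33 below it 2 fell (8.94%).

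PLK1, a kinase needed for spindle assembly and mitotic exit, fell the furthest. It was at 229 CPM in control 24 h and 159.8 CPM in control 48 h, and at 267 and 175 CPM with the FAT4 siRNA, so that both 24 h libraries were higher. Its log2 change was -0.57 (SE 0.09, adjusted p = 2.75e-08), and the ratio was 0.697 (0.667 to 0.728) with the control and 0.655 (0.624 to 0.688) with the FAT4 siRNA. KIF4A, a chromosome-bound kinesin, fell from 138 to 113 CPM with the control and from 162 to 123 CPM with the FAT4 siRNA (log2 -0.34, adjusted p = 0.00262). CDC20, the activator of the anaphase-promoting complex, fell from 253 to 197 and from 231 to 191 CPM (log2 -0.32, adjusted p = 0.00326). PLK1, KIF4A and CDC20 were also called by DESeq2.

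The phosphatase gene CDC25B fell, from 203 to 164 CPM with the control and from 198 to 164 CPM with the FAT4 siRNA (log2 -0.29, adjusted p = 0.0095). FOXM1 fell from 290.4 to 228 CPM and from 289.6 to 254 CPM (log2 -0.27, adjusted p = 0.0142). ANLN fell from 364 to 320.1 CPM and from 450.2 to 358 CPM (log2 -0.26, adjusted p = 0.0182). CDC25B and FOXM1 were lower in both 48 h libraries than in both 24 h libraries, and so was ANLN. This held for 13 of the 45 genes (28.9%), against 21.6% of all genes tested. ANLN and FOXM1 missed the threshold under library totals alone and under upper quartile scaling.

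CDC25C and CCNB2 rose. CDC25C, the phosphatase that activates CDK1 at mitotic entry, went from 26.3 to 37.1 CPM with the control and from 33.9 to 42.1 CPM with the FAT4 siRNA (log2 0.41, SE 0.12, adjusted p = 0.00645). CCNB2 went from 141 to 166 CPM and from 153 to 186 CPM (log2 0.26, adjusted p = 0.0239). In both, each 48 h library stood above both 24 h libraries, and DESeq2 called neither. That order of libraries held for 4 of the 45 genes (8.89%), against 23.8% of all genes tested. With library totals in place of TMM, 4 mitotic genes were called higher and 4 lower, and over all genes the split went from 1892 higher and 1754 lower to 2330 and 1183.

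Within each siRNA the time ratios were partly alike, with a Spearman rho of 0.58 across the 45 genes between pairs that share no library. With the control siRNA 1 gene, CDC25C, was at least 1.2-fold higher at 48 h (2.22%, where 25.2% of all genes tested were) and 6 at least 1.2-fold lower (13.3%, where 19.6% were). With the FAT4 siRNA 3 were at least 1.2-fold higher (6.67%, where 27.4% were) and 8 lower (17.8%, where 21% were). The counting interval lay below 1 for 19 genes with the control siRNA and 21 with the FAT4 siRNA (27.7% of all genes tested for each), and above 1 for 11 (27.2%) and 6 (25.6%). These interval shares are likewise not matched by level. ECT2, KIF11 and KIF20B were among the 8 genes at least 1.2-fold lower with the FAT4 siRNA, at ratios of 0.809, 0.804 and 0.801. With the control siRNA they were at 1.03, 0.987 and 1.04. UBE2C, which encodes a ubiquitin-conjugating enzyme of the anaphase-promoting complex, was at 0.817 with the control and 0.896 with the FAT4 siRNA.

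**Figure D5:**
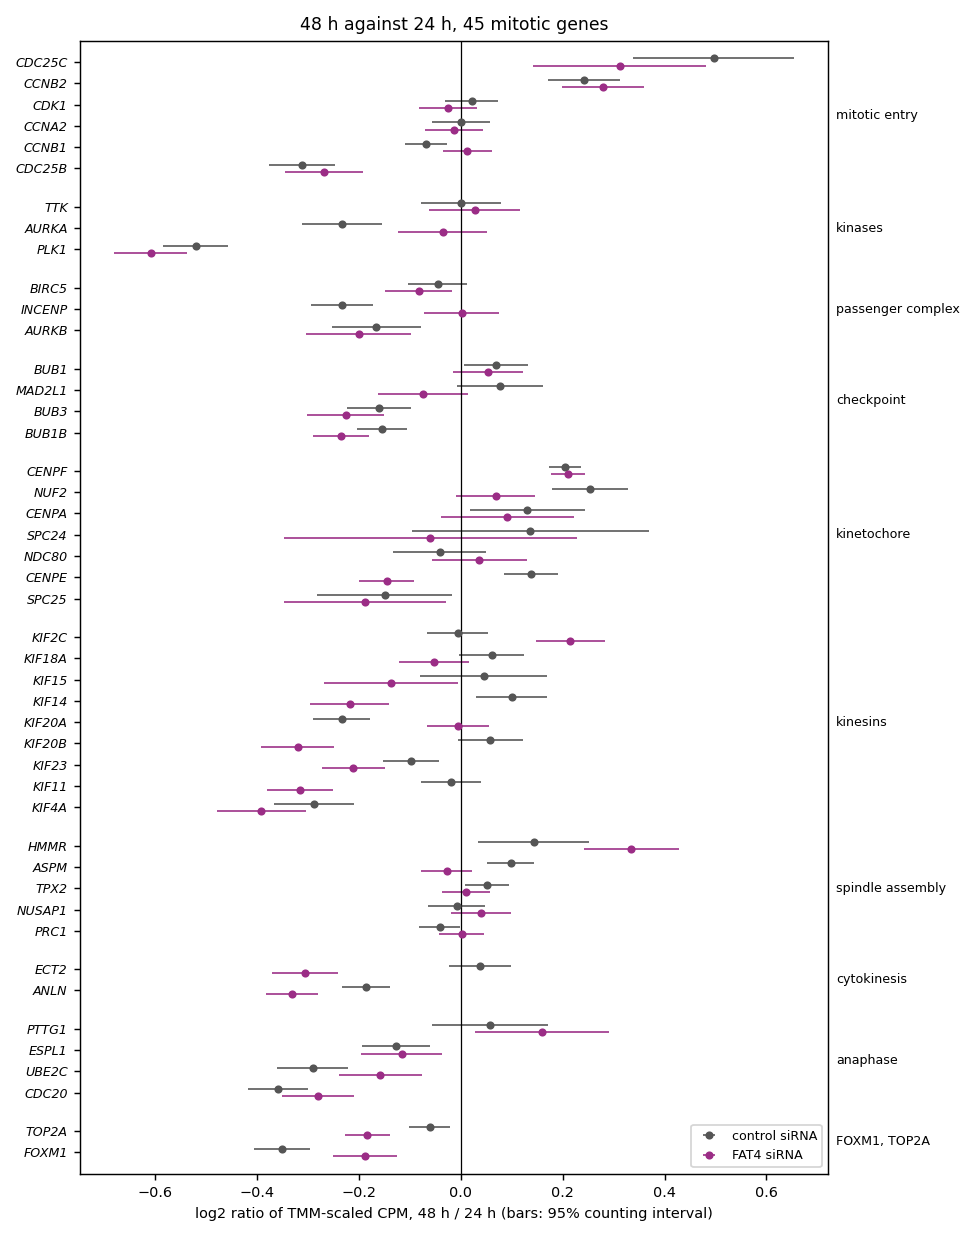
Log2 ratio of scaled CPM, 48 h to 24 h, with the control siRNA (grey) and with the FAT4 siRNA (purple) for the 45 genes grouped by role; bars are 95% counting intervals with 1 library per siRNA and time. PLK1 lies furthest to the left with both siRNAs (-0.52 and -0.61), and CDC25C furthest to the right with the control (0.50).

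Other genes of the same machinery were counted as whole lists of known members, to be read beside the 11.9% of all genes tested that rose with the FAT4 siRNA and the 14.1% that fell. Of 31 further kinetochore and centromere genes, 13 rose (41.9%) and 2 fell, with a median log2 change of 0.24. CENPH rose by 0.78 (SE 0.10, adjusted p = 8.25e-13) and DSN1 by 0.47. Of 21 condensin and cohesin genes, 9 rose (42.9%) and 1 fell (median 0.19), and the shugoshins SGOL1 and SGOL2, which protect centromeric cohesion, rose by 0.47 and 0.41. Of 39 other genes of G2 and mitosis, 10 rose (25.6%) and 1 fell (median 0.12), with LMNB1, a nuclear lamin, up by 0.91 and CKS1B, a CDK subunit, by 0.55. With the GC and length correction these 3 lists had 4 higher (12.9%) and 3 lower, 3 (14.3%) and 2, and 5 (12.8%) and 1, where 8.72% of all genes were higher and 11.8% lower, and SGOL2 lost the call (adjusted p = 0.137).

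Centrosome genes gave 4 higher (20%) and 0 lower of 20, with CEP55 up by 0.45 and CENPJ by 0.36, and DREAM and MuvB regulators 2 higher (12.5%, near the share of all genes) and 0 lower of 16, with RBL1 up by 0.44 and NFYB by 0.33. DESeq2 did not call CENPJ (adjusted p = 0.0595) or NFYB (0.146), and NFYB was also lost with the GC and length correction (0.499). Subunits and regulators of the anaphase-promoting complex gave 3 higher (14.3%) and 2 lower (9.52%) of 21, with a median of -0.00 on the log2 scale. Its chain-elongating enzyme UBE2S stood at 69.99 and 44.0 CPM with the control siRNA and at 36.3 and 26.9 CPM with the FAT4 siRNA. Its log2 change was -0.83 (SE 0.12, adjusted p = 8.80e-11), and ANAPC10 rose by 0.52, a call lost with the GC and length correction (adjusted p = 0.159) and in DESeq2 (0.121).

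With time, 12.8% of all genes tested fell and 13.8% rose. Of the 21 anaphase-promoting complex genes 6 fell (28.6%) and 1 rose, of the 39 G2 and mitosis genes 7 fell (17.9%) and 0 rose, and of the 31 kinetochore genes 5 fell (16.1%) and 1 rose. UBE2S fell by 0.56 on the log2 scale, TRIP13, which disassembles checkpoint complexes, by 0.37, KIF18B by 0.47, SHCBP1 by 0.38, CENPO by 0.54 and SKA3 by 0.43. MYBL2, a partner of MuvB, fell by 0.35 and E2F4 by 0.53 among the 16 DREAM and MuvB genes, of which 4 fell (25%) and 1 rose. NCAPH2 fell by 0.39 and STAG1 by 0.35 among 21 condensin and cohesin genes, of which 5 fell (23.8%) and 0 rose. Of the 20 centrosome genes 1 rose (CETN3, 0.46) and 3 fell (15%, TUBG1 by 0.42 among them), near the share of all genes. DESeq2 did not call KIF18B, STAG1, CETN3 or TUBG1, with adjusted p of 0.0558 to 0.0894.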

How the data were processed

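RNA from A673 cells was made into libraries with a stranded mRNA kit, per the labels. According to the submitters' processing notes, the tools included HTSeq, TopHat2, SAMtools and CASAVA 1.8.2, with build hg19; annotation, counting mode and strand setting: not given in the sources used here. The authors deposited raw read counts per gene symbol, 1 file per library. The 5 counter entries that name no gene were left out; reads outside genes were 19.5% to 20.5% of assignable reads.

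Counts were fitted with edgeR 4.0.16 in R 4.3.3: filterByExpr (minimum count 10, total 15), TMM scaling, and a quasi-likelihood test of siRNA and time as additive terms over the 4 libraries, two-sided, with Benjamini-Hochberg adjustment over 13712 genes at 0.05. The fit leaves 1 residual degree of freedom and gave all genes 1 dispersion trend (common biological coefficient of variation 0.0737), so a gene's SE (0.0881 to 0.157 over the 45 genes for siRNA) follows its level and no gene's own spread was measured. Ratios of scaled CPM carry exact 95% Clopper-Pearson intervals. Alternatives were DESeq2 1.42.0, other scalings and filters, single-term models, and offsets from natural splines of GC content (5 degrees of freedom) and log length (4) of the longest GENCODE 29 transcript, matched for 95.7% of genes tested. The fit was also run on simulated counts, in which the siRNA change depended on neither GC content nor time. The outcome of that run is not given here and is no support for the calls. By the naming rule, values in every library are given for mitotic genes called and a fixed set of others, and each other list is named by its 2 largest called changes. The genes and lists were chosen with earlier results of these data known. Overlapping genes and near-identical copies could not be resolved.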

Additional observations from a re-analysis of the deposited data

Results flagged for a closer look

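In CENPE and KIF14 the time ratios ran in opposite directions under the siRNAs, with counting intervals apart from 1 in each; the difference was not tested, because 1 library stands behind each siRNA and time. CENPE had a log2 ratio of 48 h to 24 h of 0.14 with the control siRNA and -0.15 with the FAT4 siRNA, a difference of -0.28. KIF14 had 0.10 and -0.22, a difference of -0.32. Both transcripts lie below the median GC content, at 35.3% and 38.3%. All genes below that median had median log2 time ratios of 0.07 with the control siRNA and -0.02 with the FAT4 siRNA. Across the 45 genes, GC content correlated with the time ratio at a Spearman rho of -0.54 with the control siRNA and 0.01 with the FAT4 siRNA. How far base composition set these ratios was not tested.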

How the results depend on the processing

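The count of genes higher with the FAT4 siRNA was 16, and 15 to 17 under RLE and upper quartile scaling, no filter and a filter at 5 CPM, and 12 with library totals alone; each set held only called genes of the reported fit and, in 3 of them, TPX2. DESeq2 gave 9, the GC and length correction 6 and the model without time 0. For time, the count of higher genes was 2 and became 4 under upper quartile scaling, library totals or a filter at 5 CPM. It was 1 without a filter, and 0 with DESeq2 or without the siRNA term. The count of lower genes was 6, 4 under upper quartile scaling or library totals, and 7 under RLE scaling or without a filter. It was 8 with the GC and length correction (3 higher), 3 with DESeq2 and 0 without the siRNA term. Without that term, 2 were lower at an unadjusted p under 0.05, where 5.37% of all genes tested were. The siRNA median ran from 0.10 to 0.18 over all alternatives run and the time median from -0.07 to 0.01. Ratio counts past 1.2-fold moved as follows, given without shares of all genes, so that they show only the dependence on processing. With the GC and length correction, 5 genes were higher and 1 lower at 24 h, and 6 higher at 48 h. Under upper quartile scaling and library totals, time counts were 3 and 3 higher and 3 and 3 lower with the control siRNA, and 5 and 5 higher and 4 and 3 lower with the FAT4 siRNA. Some log2 values changed sign, all of genes not called in that comparison except CDK1 for the siRNA. For the siRNA comparison this happened with the GC and length correction: CCNB1 -0.102, CDK1 -0.011, CDC25B 0.12, TTK -0.037, CENPA -0.0303, KIF20B -0.065, INCENP 0.074, ESPL1 0.11, UBE2C -0.0079. Of these, CDK1 (0.24), KIF20B (0.15) and TTK (0.10) had been the furthest from 0 in the reported fit. For time: With upper quartile scaling, CCNA2 0.046, CCNB1 0.025, CDK1 0.0502, NDC80 0.0497, CENPE 0.048, KIF15 0.0069, PRC1 0.032. With library totals alone, CCNA2 0.052, CCNB1 0.031, CDK1 0.056, NDC80 0.056, CENPE 0.054, KIF14 8.9e-05, KIF15 0.013, PRC1 0.038. Among genes of at least 5 CPM, CCNA2 0.0058, CDK1 0.0101, NDC80 0.0096, CENPE 0.0083. With the GC and length correction, CCNA2 0.0021, MAD2L1 -0.025, KIF18A -0.028, ASPM -0.0066. With RLE scaling, MAD2L1 -0.0089, KIF18A -0.0064. Without the filter on low counts, MAD2L1 -0.021, TTK -0.0083, KIF18A -0.018, NUSAP1 -0.0063. With the other factor left out, MAD2L1 -0.0075, NDC80 0.0029, KIF18A -0.00043. With DESeq2, MAD2L1 -0.0091, KIF18A -0.0065. The cause was not tested. The labels give no replicate numbers, so no replicate block was fitted; the time term sets the libraries of each time side by side. At 202 to 311 counts, SPC24 has the widest intervals of the 45 genes.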

Other observations

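Of 19 genes of G1 and S phase, upstream of the mitotic program, 5 rose with the FAT4 siRNA (26.3%, where 11.9% of all genes tested rose) and 1 fell (median 0.14). With the GC and length correction the counts were again 5 and 1 (median 0.17), where 8.72% of all genes were higher and 11.8% lower. E2F7, a repressor of E2F targets, stood at 49.3 and 42.3 CPM with the control siRNA and at 97.3 and 87.6 CPM with the FAT4 siRNA. Its log2 change was 1.02 (SE 0.10, adjusted p = 6.87e-20). CDC6, which loads the replicative helicase, rose by 0.55. With time 11 of the 19 fell and 0 rose (median -0.34), where 12.8% of all genes tested fell; CCNE1 fell by 0.91 on the log2 scale and CCNE2 by 0.55, and DESeq2 called neither of these 2.

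Among 13 tested brakes on CDKs, 5 rose with the FAT4 siRNA (38.5%, against 11.9% of all genes tested) and 1 fell (7.69%, against 14.1%). WEE1, the kinase that holds CDK1 inactive, rose by 0.53 (adjusted p = 1.33e-05), and the antiproliferative gene BTG2 fell by 0.73 on the log2 scale. With time 3 rose and 3 fell (23.1% each, against 13.8% and 12.8% of all genes tested). The CDK inhibitor CDKN1C rose by 2.27 from a low level, 0.761 to 3.43 CPM with the control and 0.474 to 2.56 CPM with the FAT4 siRNA, and GADD45B fell by 0.58 on the log2 scale, a call that DESeq2 did not make (adjusted p = 0.177).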
